A study of Gallus gallus with 4 samples.

Results

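The genes described here are 4 Src family tyrosine kinases (SRC, YES1, FYN and LYN), their inhibitor CSK, the focal adhesion kinase PTK2, and the adhesion and actin substrates BCAR1, PXN and CTTN. They were chosen by name, with earlier results of these data known. Every probe set that the platform annotation gives to 1 of these 9 symbols was taken, which made 26 of the 38535 probe sets in the table. RNA was measured in PR9692, a sarcoma-derived cell line from chickens of strain CC.R1, on 4 Affymetrix chicken arrays. Of these, 2 arrays came from cells stably transfected with a control short hairpin RNA (shRNA) and 2 from cells stably transfected with an anti-HOPX shRNA, HOPX being a gene for a small homeodomain protein. The design text calls the control form metastatic and the anti-HOPX form non-metastatic, so the comparison asks how transcripts differ between those forms of the same line. All arrays came from the same line in the same medium at 40 °C. The labels do not say whether a form was 1 clone or a pool of transfected cells, nor whether the biological replicates they name were separate cultures, so p-values measure only the spread between these arrays.

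Src family kinases are attached to the inner face of the plasma membrane, where an SH3 and an SH2 domain hold the kinase domain closed. CSK phosphorylates a tyrosine in the tail of these kinases, and the SH2 domain then binds that tail and keeps the kinase inactive. When integrins bind the extracellular matrix, PTK2 phosphorylates itself and recruits SRC, and the pair phosphorylates the scaffolds BCAR1 (p130Cas) and PXN (paxillin), which leads to turnover of adhesions and cell movement. CTTN (cortactin), also a substrate of SRC, binds actin filaments and the Arp2/3 complex at the cell edge. PR9692 is known to come from a tumour induced by v-src, the viral form of SRC. Array values are transcript levels and do not measure kinase activity or phosphorylation.

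Each level is the deposited value, taken to be a GCRMA value in log2 units. Each difference is the anti-HOPX mean minus the control mean, also in log2 units. Medians over all probe sets lay between 3.12 and 3.15, and precision is limited by having 2 arrays a form. Replicates differed more in anti-HOPX cells, where the median absolute gap between the arrays was 0.25 over the 14851 probe sets kept for testing, against 0.16 in control cells. HOPX itself could not serve as a check of the labels, since its 2 probe sets read between 2.92 and 3.72 on all 4 arrays, near the background. Of 12 mesenchymal markers, 9 had a mean of at least 4, with vimentin (VIM) at 15.97 in control and 15.89 in anti-HOPX cells. The mesenchymal list averaged 8.79 to 8.96 on the control arrays against 8.97 to 9.39 on the anti-HOPX arrays. Of its genes only the collagen chain COL1A1 was called, higher by 1.73 (limma adjusted p = 0.0020). Its partner chain COL1A2, under the mean required for testing, read 4.16 and 5.36 in control cells against 2.79 and 2.39 in anti-HOPX cells. The 6 epithelial and 6 skeletal muscle markers on the array all had means under 4, and of 6 endothelial markers 2 had a mean of at least 4 and none was called.

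A probe set was tested where its mean over the 4 arrays was at least 4, and called where limma's p-value, adjusted by the Benjamini-Hochberg method over all kept probe sets, was under 0.05. Of the 26 probe sets of these genes, 18 were tested, with at least 1 for each of the 9 genes, and 8 lay under that mean. LYN fell and PTK2 rose, each at 1 probe set, and the other 16 tested probe sets were not called. Over all kept probe sets 7.66% were called, 3.12% higher and 4.54% lower, so 2 of 18 is near the background. The groups did not overlap at 12 of the 18, 10 lower and 2 higher. The same held for 55.9% of all kept probe sets, 28.0% lower and 27.9% higher. The median difference was -0.14 over the 18 and 0.01 over all kept probe sets, and the median absolute difference was 0.43 against 0.27. The 18 are not independent of each other, as several belong to the same gene.

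**Figure D1:**
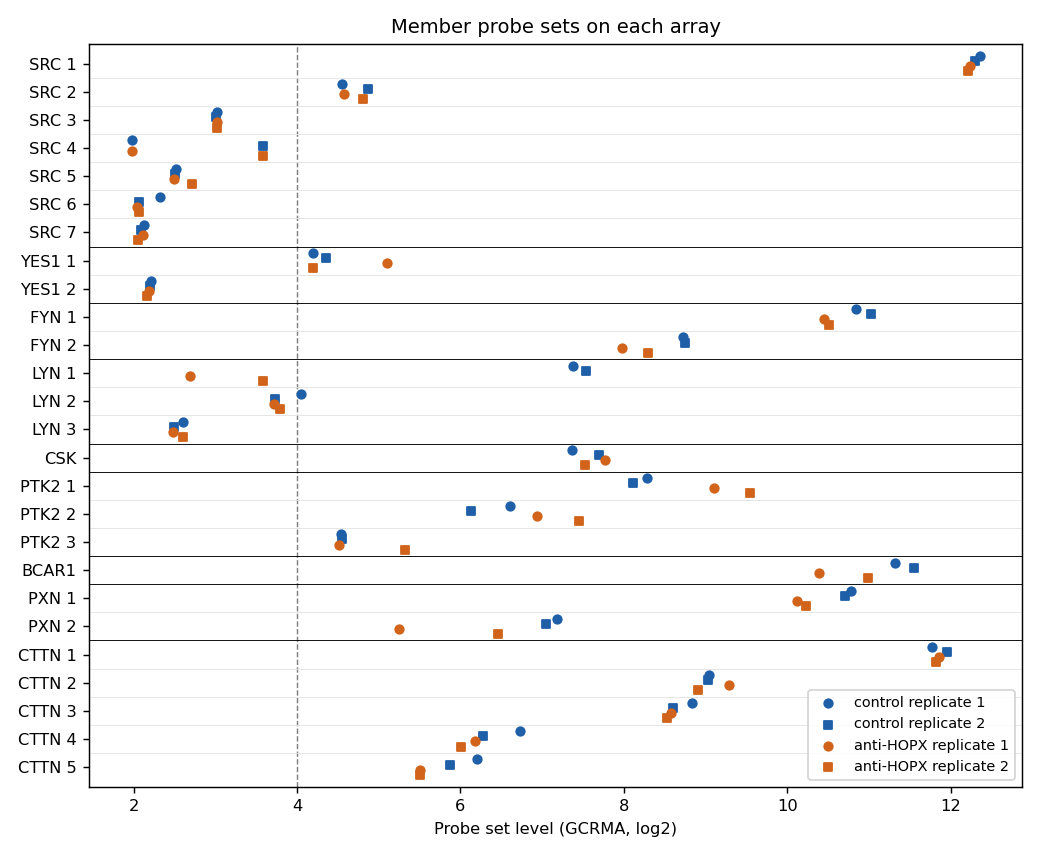
Level of each of the 26 probe sets (taken to be GCRMA, log2) on each array. Probe sets of a gene are numbered from the highest mean, blue marks are control and orange marks anti-HOPX arrays, and the dashed line is the value of 4. The first LYN probe set is above 7 on the control arrays and under 4 on the anti-HOPX arrays, while the first PTK2 probe set is higher on both anti-HOPX arrays.

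LYN (NCBI gene ID 421127), a Src family kinase best known from blood cells, where it signals from antigen and Fc receptors, showed the widest separation of the forms. Its brightest probe set read 7.38 and 7.53 in control cells against 2.69 and 3.58 in anti-HOPX cells. Control arrays were thus well above the background and anti-HOPX arrays within it, with a gap of 3.80 between the nearest arrays of the forms. The means were 7.45 ± 0.11 (SD, n = 2) and 3.14 ± 0.63, a difference of -4.32 (SE 0.33, 95% interval -5.14 to -3.50, limma adjusted p = 0.0027). Because values under 4 are dominated by background, the fold was bounded by raising single values under 4 to 4, which gave a fall of at least 11.0-fold. It passed the filter through the control arrays, since its anti-HOPX mean is under 4. The call held under all 9 alternatives that could test it, with adjusted p from 1.4e-05 to 0.042, the highest without control replicate 2.

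The other LYN probe sets showed no such separation. The second by level read 4.05 and 3.73 in control cells against 3.72 and 3.79 in anti-HOPX cells, and the third read between 2.48 and 2.60 on all 4 arrays. Both lay near or under 4 in control cells too, so the fall of LYN rests on 1 probe set. The suffix _s_at of that probe set is Affymetrix's mark for probes shared by several transcripts, and whether it reads another gene's transcript was not tested. In bulk RNA, fewer cells with a transcript and less of it per cell cannot be told apart. Since LYN is known from blood cells, the blood markers are given beside it. Of 9 such markers 1 had a mean of at least 4, the transcription factor SPI1, at 8.17 in control and 8.70 in anti-HOPX cells (adjusted p = 0.17 by limma). The pan-leukocyte gene PTPRC averaged 2.78 in control and 2.75 in anti-HOPX cells. The blood list averaged 3.28 to 3.33 on the control arrays against 3.33 to 3.37 on the anti-HOPX arrays, with none of its genes called. The other 8 markers lay under 4, and the part of blood cells in the LYN level was not tested.

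SRC (gene ID 396442), the founding member of the family, has 7 probe sets, of which 2 were tested. The brightest read 12.36 and 12.30 in control cells against 12.24 and 12.22 in anti-HOPX cells. The anti-HOPX arrays were slightly lower without overlap, a difference of -0.10 (SE 0.10, 95% interval -0.36 to 0.15, limma adjusted p = 0.59). The other tested one read 4.55 and 4.87 in control against 4.57 and 4.81 in anti-HOPX cells, differing by -0.02 (95% interval -0.58 to 0.54, limma adjusted p = 0.97), and a further quantile normalisation turned its sign, to 0.075. The 5 SRC probe sets under the filter read between 1.97 and 3.58. Probe sequences were not used here, so how far an SRC probe set also reads the viral transcript was not tested.

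FYN (gene ID 396294), a widely expressed member of the family, was lower on both anti-HOPX arrays at each of its probe sets. Neither passed in the main fit. The brighter read 10.84 and 11.03 in control cells against 10.45 and 10.52 in anti-HOPX cells, differing by -0.45 (SE 0.13, limma adjusted p = 0.10). The dimmer read 8.72 and 8.75 in control against 7.98 and 8.29 in anti-HOPX cells, differing by -0.60 (SE 0.18, limma adjusted p = 0.11). The forms did not overlap at either, and the anti-HOPX means were 1.37-fold and 1.51-fold lower. The difference of the dimmer one was -0.75 without anti-HOPX replicate 2 and -0.44 without anti-HOPX replicate 1. It was -0.61 without control replicate 1 and -0.58 without control replicate 2. YES1 (gene ID 396238), a close relative of SRC, was near the background, and its tested probe set read 4.20 and 4.36 in control cells against 5.10 and 4.20 in anti-HOPX cells. Here 1 anti-HOPX array stood above the rest, and the difference of 0.37 (95% interval -0.46 to 1.20, limma adjusted p = 0.55) turned to -0.085 without it. The other YES1 probe set, not tested, read between 2.16 and 2.21.

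CSK (gene ID 396396), the inhibitor of the family, overlapped between forms. It read 7.37 and 7.69 in control cells against 7.77 and 7.53 in anti-HOPX cells. The difference was 0.12 (SE 0.21, 95% interval -0.40 to 0.63, limma adjusted p = 0.77). Its sign turned without control replicate 1 (-0.044) and without anti-HOPX replicate 1 (-0.001).

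PTK2 (gene ID 396416), the kinase that recruits SRC to integrin adhesions, rose. Its brightest probe set read 8.28 and 8.11 in control cells against 9.11 and 9.55 in anti-HOPX cells. Each anti-HOPX array was above each control array, by 0.83 at the nearest. The means were 8.19 ± 0.12 (SD, n = 2) and 9.33 ± 0.31, a rise of 2.19-fold (log2 difference 1.13, SE 0.20, 95% interval 0.63 to 1.64, limma adjusted p = 0.035). It no longer passed when control replicate 1 (1.22, adjusted p = 0.22) or control replicate 2 (1.05, adjusted p = 0.27) was left out, or with no filter on low values (adjusted p = 0.14), and it held under the other 7 alternatives. The other PTK2 probe sets were higher on average but not called. The second by level read 6.61 and 6.13 in control against 6.93 and 7.46 in anti-HOPX cells, without overlap, differing by 0.82 (SE 0.28, limma adjusted p = 0.14). The third read 4.54 and 4.55 in control against 4.51 and 5.32 in anti-HOPX cells, so its difference of 0.37 (limma adjusted p = 0.51) came from anti-HOPX replicate 2, without which it was -0.032.

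**Figure D2:**
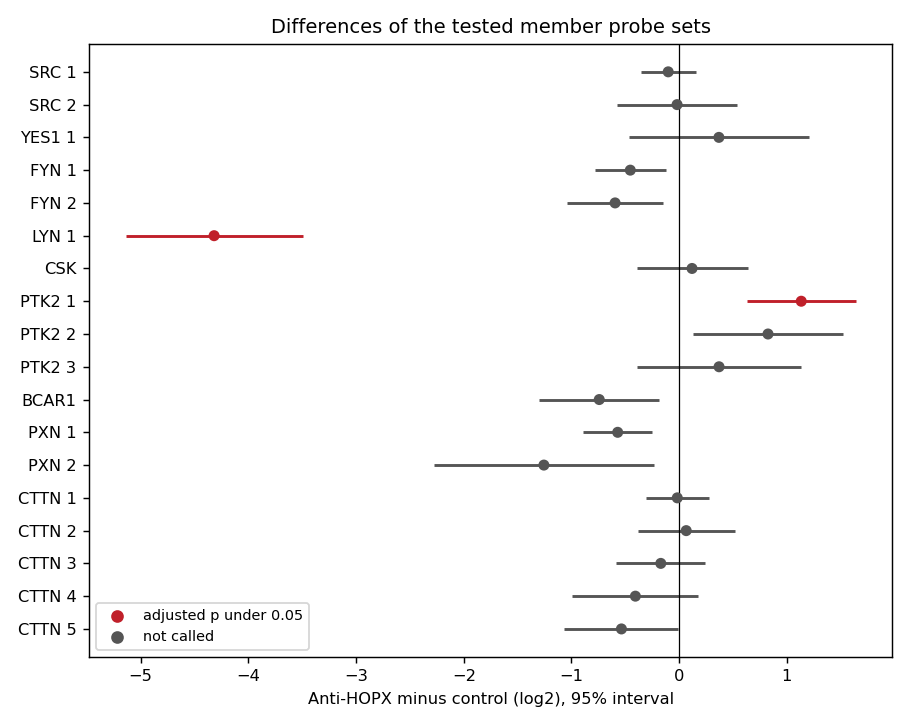
Difference of each of the 18 tested probe sets (anti-HOPX minus control, log2) with limma's 95% interval, red where the adjusted p was under 0.05. The first LYN probe set lies at -4.32 and the first PTK2 probe set at 1.13, while those of FYN, BCAR1 and PXN lie between -1.26 and -0.45 and were not called.

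The substrates of the SRC and PTK2 pair in focal adhesions are BCAR1 (gene ID 415691) and PXN (gene ID 395832). All 3 of their probe sets were lower on both anti-HOPX arrays, and none passed in the main fit. The probe set of BCAR1 read 11.32 and 11.55 in control cells against 10.40 and 10.99 in anti-HOPX cells. This is 1.67-fold lower, a difference of -0.74 (SE 0.22, 95% interval -1.30 to -0.19, limma adjusted p = 0.11). The brighter PXN probe set read 10.78 and 10.71 in control against 10.12 and 10.23 in anti-HOPX cells, differing by -0.57 (SE 0.13, 95% interval -0.89 to -0.25, limma adjusted p = 0.057). The dimmer one read 7.18 and 7.05 in control against 5.25 and 6.46 in anti-HOPX cells, differing by -1.26 (SE 0.41, limma adjusted p = 0.13). Its SD was 0.85 in anti-HOPX cells and 0.09 in control cells. Anti-HOPX replicate 2 lay nearer to the control arrays than replicate 1 at each of these 3 probe sets. Without anti-HOPX replicate 2 the differences were -1.04 for BCAR1 and -0.63 and -1.86 for PXN, the brighter first. Without anti-HOPX replicate 1 they shrank to -0.44, -0.51 and -0.65. Without a control array they ranged from -0.86 to -0.63 for BCAR1, and from -0.61 to -0.54 and -1.32 to -1.19 for PXN.

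CTTN (gene ID 396455) was the member with the most tested probe sets, 5, and none was called. The brightest read 11.77 and 11.95 in control cells against 11.86 and 11.83 in anti-HOPX cells, differing by -0.02 (95% interval -0.31 to 0.28, limma adjusted p = 0.95). The forms overlapped there and at the second by level, which differed by 0.07 (limma adjusted p = 0.86). The third differed by -0.17, its anti-HOPX arrays slightly lower without overlap (limma adjusted p = 0.58). The second read 9.04 and 9.03 in control cells against 9.29 and 8.91 in anti-HOPX cells, so its anti-HOPX arrays lay on either side of the control arrays. The fourth and the fifth differed by -0.41 and -0.54, without overlap (limma adjusted p of 0.34 and 0.19). The fourth read 6.73 and 6.27 in control cells against 6.18 and 6.01 in anti-HOPX cells. The fifth read 6.21 and 5.87 in control cells and 5.50 on both anti-HOPX arrays. The sign of the brightest turned without control replicate 2 (0.074) and without anti-HOPX replicate 2 (0.0008), and that of the second without anti-HOPX replicate 1 (-0.12). Probe sets of CTTN thus ranged from 0.07 to -0.54, and which transcripts each reads was not tested.

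Genes that act with these kinases were taken from 5 lists of 148 symbols, of which 98 genes were tested, each at its probe set with the highest mean. Of the 98, 2 rose, 5 fell and 91 were not called, which is 7.14%, against 8.87% of all 7691 genes so tested (3.63% higher and 5.24% lower). The median difference was -0.01, and 0.02 over all genes. The share is near the background.

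Among 38 signalling partners of SRC and PTK2, 1 rose and 1 fell (median -0.02). NEDD9, a scaffold of the same family as BCAR1, read 4.11 and 4.49 in control cells against 6.91 and 6.79 in anti-HOPX cells. It rose 5.85-fold from near the background, a difference of 2.55 (SE 0.22, limma adjusted p = 0.0043), whereas BCAR1 was lower on both anti-HOPX arrays without passing. The call of NEDD9 was lost without control replicate 1 (adjusted p = 0.057), and its other tested probe set, at 4.24 to 4.41 on all arrays, differed by 0.066 (adjusted p = 0.87 by limma). ELMO1, which works with DOCK1 downstream of BCAR1 to activate RAC, fell 2.01-fold (-1.01, limma adjusted p = 0.033), and its second tested probe set fell by 1.74 (limma adjusted p = 0.014). Both carry the suffix _s_at, and whether they read another gene's transcript was not tested. The untested ELMO1 probe sets read between 2.96 and 3.66. The call of ELMO1 was lost when control replicate 1 (adjusted p = 0.20) or control replicate 2 (adjusted p = 0.29) was left out and with no filter (adjusted p = 0.12). BCAR3, a binding partner of BCAR1, differed by -0.85 and the exchange factor VAV2 by 0.75 (limma adjusted p of 0.054 and 0.079).

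Among 26 scaffold and linker proteins of focal adhesions, 1 rose and 3 fell (median 0.01). TLN2, a talin that links integrins to actin, read 5.55 and 5.66 in control cells against 7.08 and 6.58 in anti-HOPX cells. It rose 2.34-fold (limma adjusted p = 0.042). The other TLN2 probe set, not tested, read between 2.50 and 2.85, so the rise rests on 1 probe set. FERMT1, an integrin-activating kindlin, fell by 1.09, PARVB, a parvin that binds integrin-linked kinase, by 0.89, and LIMD1, a zyxin-related LIM protein, by 0.78 (limma adjusted p of 0.0495, 0.041 and 0.038). The second tested probe set of PARVB and the other 2 of LIMD1 also fell, while the second of FERMT1 differed by -1.93 and was not called (limma adjusted p = 0.11). All tested probe sets of PARVB and FERMT1, and the brightest and dimmest tested of LIMD1, carry the suffix _s_at. Whether they read another gene's transcript was not tested. The untested FERMT1 probe sets read between 2.69 and 3.41. LPP (-0.81) and KANK1 (0.70) did not pass. Of 7 integrin chains, ITGB5 fell 2.54-fold, from 12.10 and 11.87 to 10.95 and 10.33 (limma adjusted p = 0.028), and ITGA6 (-0.59, limma adjusted p = 0.053) and ITGB1 (-0.33) did not pass. TLN2, FERMT1, PARVB, LIMD1 and ITGB5 each lost the call without control replicate 1, without control replicate 2 and with no filter on low values, with adjusted p from 0.13 to 0.31. TLN2 also lost it without anti-HOPX replicate 1 (difference 0.97) and FERMT1 without anti-HOPX replicate 2 (difference -0.95). Without the intensity trend ITGB5, PARVB, FERMT1 and LIMD1 were not called either (limma adjusted p of 0.051, 0.052, 0.061 and 0.078). FERMT1 also lost the call after a further quantile normalisation (limma adjusted p = 0.055).

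Neither remaining list had a called gene by limma. Of 9 tested relatives and regulators of the family, 5 lay above 0 and 4 below (median 0.05). The phosphatases PTPN1 (0.65) and PTPRA (0.51), which remove the inhibitory tail phosphate, lay farthest from 0. Of 18 actin branching genes around CTTN, 8 lay above 0 and 10 below (median -0.03). The Arp2/3 subunit ACTR3 read 12.54 and 12.64 in control cells against 12.07 and 11.72 in anti-HOPX cells, a difference of -0.69 (limma adjusted p = 0.052), and its second probe set fell by 1.38 (limma adjusted p = 0.016). The actin-binding protein COTL1 differed by 0.65 (limma adjusted p = 0.14).

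**Figure D3:**
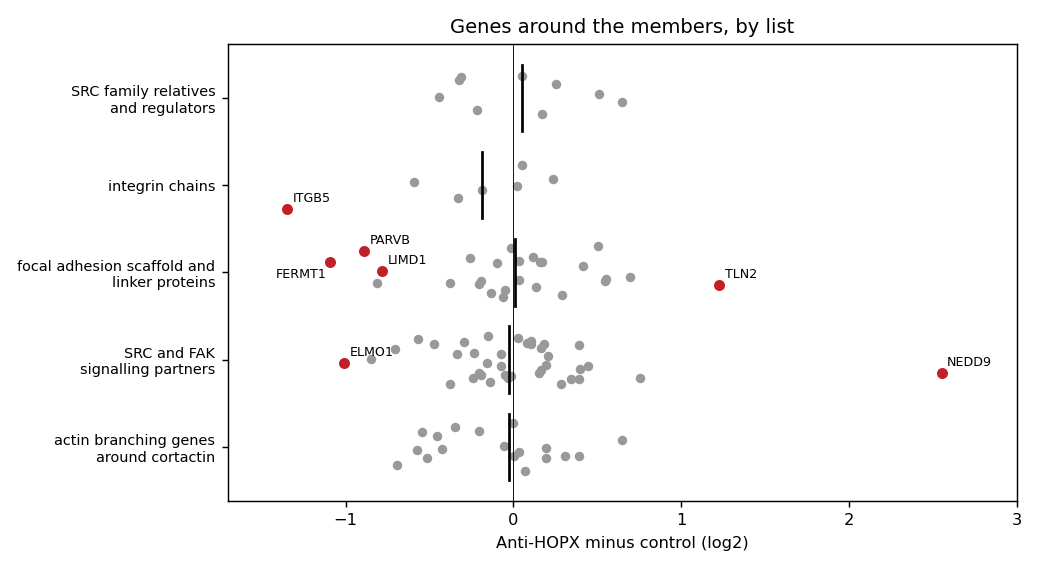
Difference of each of the 98 tested genes (anti-HOPX minus control, log2) in the 5 lists around the members. Red points with names had an adjusted p under 0.05, black bars are the list medians, and vertical scatter within a list has no meaning. NEDD9 stands at 2.55 and ITGB5 at -1.35, and the list medians lie between -0.19 and 0.05.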

How the data were processed

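The deposited table holds a log2 level for each probe set on each array. The submitters' processing notes list Partek 6.4 and GCRMA but give neither a role. GCRMA corrects background by probe sequence and normalises the arrays to each other, so levels near the floor are compressed and overall differences in RNA amount are removed. The log2 scale was inferred from the range of the values, and scanner settings are not stated. The 96 control probe sets were left out. Symbols came from the platform annotation, and list genes were updated through a RefSeq gene table for GRCg7b, which held 98.8% of the identifiers.

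The comparison used limma 3.58.1 under R 4.3.3 on all 14851 kept probe sets (lmFit, then trended eBayes, two-sided, no replicate block). The smallest p that exact permutation of 2 and 2 arrays allows is 0.33. The fit was tested on simulated data whose spread was drawn from the fitted model, so that test could not show whether the model suits these arrays. Every probe set of the members is named, and from each list up to 4 called genes and up to 2 not called, by size of difference. Members and lists were chosen with earlier results of these data known. Alternatives were other filters, variance models, a second normalisation, a 2-fold minimum, gene means, a replicate block, and the removal of single arrays.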

Additional observations from a re-analysis of the deposited data

How the results depend on the processing

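The main fit called 1 member probe set higher and 1 lower, 464 and 674 probe sets in all, and 2 and 5 list genes. With no filter on low values, which adds dim probe sets to the fit and to the adjustment, these were 0 and 1, 80 and 194, and 2 and 0. With a mean of at least 6 they were 1 and 0 for the members, since the LYN probe set was then not tested, and 1 and 10 for the list genes. The list genes called lower numbered 2 without the intensity trend and 3 with a 2-fold minimum. The 2 list genes called higher with no filter included NEDD9 (limma adjusted p = 0.029) but not TLN2 (limma adjusted p = 0.14). Leaving out 1 array at a time gave 0 to 1 member probe sets higher and 1 to 5 lower, 34 to 728 and 108 to 1006 in all, and 0 to 3 and 0 to 10 list genes, with the fewest calls when a control array was left out.

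The replicate numbers are shared between the forms, though nothing in the labels pairs them. The replicate 2 minus replicate 1 difference correlated between the forms at 0.25 across kept probe sets. With a replicate block 1 member probe set was called higher and 6 lower (LYN, BCAR1, and both of FYN and of PXN), 1149 and 1549 in all, and 8 and 13 list genes.

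Of the 175 results for single member probe sets under an alternative, 153 kept direction and call, 9 became called, 3 lost the call (all PTK2) and 10 turned in sign, none of them called. Those that became called were of FYN, BCAR1 and PXN, with the replicate block or without anti-HOPX replicate 2. The dimmer tested SRC probe set turned to 0.075 when normalised again and ranged from -0.18 to 0.14 with 1 array left out. The same range was -0.085 to 0.82 for YES1, -0.044 to 0.28 for CSK, -0.032 to 0.77 for the dimmest PTK2 probe set, -0.11 to 0.074 for the brightest CTTN probe set and -0.12 to 0.25 for the second. Signals near 4 limit what can be said of YES1, the lower SRC probe sets and the anti-HOPX level of LYN.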

Other observations

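One SRC probe set under the filter followed the replicate number and not the form, reading 1.98 and 3.58 on control replicates 1 and 2 and 1.97 and 3.58 on anti-HOPX replicates 1 and 2. Over all non-control probe sets the replicate 2 minus replicate 1 difference correlated between the forms at 0.18.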
